A study of Mus musculus with 9 samples.

Results

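The 10 genes described are ATF4, the transcription factor of the integrated stress response, and 9 of its known or reported targets: Ddit3, Trib3, Asns, Chac1, Eif4ebp1, Fgf21, Sesn2, Psat1 and Phgdh. They were picked by symbol from the 53607 rows of an expression table, and all 10 were among the 14501 rows that passed a filter of at least 1 TPM, a length-corrected relative abundance, in at least 3 of 9 libraries. RNA was measured by sequencing in skeletal stem cells sorted from the day 10 fracture callus of the femur in C57BL/6J mice that were 2, 12 or 24 months old. Each age had 3 libraries, and no group carried an engineered allele or received an agent named in the labels. Every group was fractured, and no uninjured sample was analysed here. Age is the only difference between the groups that the labels give, and they do not describe sort days, handling or library batches. The sort kept ITGAV+ cells without THY1, 6C3 and CD105 and without the blood and vessel markers CD45, TER119 and TIE2. The labels do not say whether the libraries of an age came from separate animals or from pools, and any p-value therefore measures only the spread between these libraries.

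The integrated stress response begins when a kinase that senses missing amino acids, unfolded protein, haem shortage or viral RNA phosphorylates the translation factor eIF2. General protein synthesis then falls while the messenger RNA of Atf4 is translated more, so the protein can increase with little change in its RNA. ATF4 pairs with C/EBP factors on composite DNA elements and raises genes for amino acid import, amino acid synthesis and transfer RNA charging, together with factors that decide how a stressed cell proceeds. FGF21 is a secreted hormone best known from liver, and it is also made by stressed muscle and other tissues. In bone and cartilage, ATF4 is known for its part in osteoblast and chondrocyte differentiation, both of which need large amounts of amino acids for matrix collagen.

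The deposited values are log2(TPM + 1), and levels are given here as TPM, which corrects for transcript length and so allows genes to be compared. Between 13387 and 13813 genes reached 1 TPM in a library. Library 1 of 24 months stood apart from the rest, with a mean Pearson r of 0.932 to the other 8 libraries against 0.953 to 0.962 for all others. Of 8 cartilage and bone genes that mark skeletal cells, Col2a1 and Sox9 among them, all were kept, and their summed level was 64955 to 72214 TPM at 2 months, 41602 to 50893 TPM at 12 months and 40368 to 53228 TPM at 24 months. Ptprc, which encodes CD45, was at most 0.281 TPM. Itgav, the positive marker of the gate, was present in all 9 libraries at 25.2 to 50.1 TPM.

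Markers of other cell types varied between libraries and ages, and their part in the results was not tested. All 6 smooth muscle genes were kept, and their summed level was 60.6 to 169 TPM at 2 months, 49.3 to 410 TPM at 12 months and 410 to 1002 TPM at 24 months. Skeletal muscle genes, 6 of 10 kept, summed to 32.6 to 35.5 TPM, 39.4 to 44.0 TPM and 62.3 to 95.1 TPM, with Myod1 and Myog at 0 in all 9 libraries. Adipocyte genes, 3 of 7 kept, summed to 17.7 to 32.2 TPM, 78.7 to 116 TPM and 53.7 to 73.4 TPM, mostly Fabp4, with Lep at 0 in all 9 and Adipoq at most 0.231 TPM. Myeloid genes, 5 of 10 kept, summed to 27.5 to 52.9 TPM, 54.8 to 110 TPM and 32.4 to 220 TPM. Endothelial genes, 2 of 6 kept, summed to at most 7.59 TPM in any library. Red cell and lymphoid genes, 3 of 7 kept, reached 462 TPM in library 2 of 12 months and 418 TPM in library 1 of 24 months against 40.9 to 155 TPM in the others. All 7 proliferation genes were kept, summing to 156 to 261 TPM at 2 months, 207 to 368 TPM at 12 months and 374 to 397 TPM at 24 months. Immediate early genes, which tissue handling can induce, summed to 14193 to 17102 TPM at 2 months, 7962 to 8592 TPM at 12 months and 9011 to 12067 TPM at 24 months.

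Promoter sequences are shown for the 4 members that hold the core of the composite element bound by ATF4 and C/EBP factors, together with Phgdh, which holds none, and Vldlr, another known ATF4 target whose levels followed those of Atf4 closely. The motif searched was TGATGNAA on either strand, in windows of 250 bases before and 50 bases after the start of each RefSeq gene on build GRCm38.p6. Each sequence reads 5′ to 3′ along the strand of the gene, with 250 bases before and 30 bases after the start, and capitals mark the motif, which appears as its reverse complement where the match lies on the opposite strand.
Fgf21, chr7:45615461-45615740, minus strand: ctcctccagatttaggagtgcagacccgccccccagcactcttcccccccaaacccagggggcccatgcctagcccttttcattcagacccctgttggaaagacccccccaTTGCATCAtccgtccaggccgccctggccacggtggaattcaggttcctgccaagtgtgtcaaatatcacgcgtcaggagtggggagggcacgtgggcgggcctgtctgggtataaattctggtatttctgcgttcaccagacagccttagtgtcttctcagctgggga
Trib3, chr2:152344031-152344310, minus strand: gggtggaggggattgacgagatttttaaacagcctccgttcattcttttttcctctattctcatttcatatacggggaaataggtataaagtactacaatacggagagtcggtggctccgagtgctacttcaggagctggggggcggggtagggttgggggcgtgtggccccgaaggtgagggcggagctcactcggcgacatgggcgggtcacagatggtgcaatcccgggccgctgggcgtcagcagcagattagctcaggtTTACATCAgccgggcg
Asns, chr6:7693180-7693459, minus strand: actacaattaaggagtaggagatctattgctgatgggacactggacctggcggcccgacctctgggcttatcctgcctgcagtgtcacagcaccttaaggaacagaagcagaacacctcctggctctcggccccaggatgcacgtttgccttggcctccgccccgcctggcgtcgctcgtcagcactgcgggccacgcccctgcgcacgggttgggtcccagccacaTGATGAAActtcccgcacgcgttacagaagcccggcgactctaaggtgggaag
Chac1, chr2:119350992-119351271, plus strand: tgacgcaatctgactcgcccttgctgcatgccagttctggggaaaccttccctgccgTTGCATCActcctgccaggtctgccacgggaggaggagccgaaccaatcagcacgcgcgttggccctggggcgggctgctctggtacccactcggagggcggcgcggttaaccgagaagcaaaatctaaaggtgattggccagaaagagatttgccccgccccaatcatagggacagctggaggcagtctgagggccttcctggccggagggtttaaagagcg
Phgdh, chr3:98339940-98340219, minus strand: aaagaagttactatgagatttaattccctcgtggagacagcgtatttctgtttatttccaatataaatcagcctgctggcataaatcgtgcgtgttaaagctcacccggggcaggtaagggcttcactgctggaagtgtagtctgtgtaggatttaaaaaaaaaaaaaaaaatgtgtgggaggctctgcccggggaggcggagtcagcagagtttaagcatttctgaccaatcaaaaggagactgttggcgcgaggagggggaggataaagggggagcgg
Vldlr, chr19:27216770-27217049, plus strand: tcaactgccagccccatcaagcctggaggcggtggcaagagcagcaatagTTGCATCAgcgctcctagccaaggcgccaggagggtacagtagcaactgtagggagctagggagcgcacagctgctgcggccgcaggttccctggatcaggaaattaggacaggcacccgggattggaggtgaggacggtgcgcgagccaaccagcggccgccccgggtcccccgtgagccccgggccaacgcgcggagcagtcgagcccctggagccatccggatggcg

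Counting the first base of the RefSeq gene as 1, the match began at base -139 in Fgf21 and at -193 in Chac1. It began at -23 in Asns and at 15 in Trib3. The gene coordinates given below come from GENCODE, whose starts for Asns and Trib3 differ from these. By the GENCODE starts, the Asns match (7693225 to 7693232) lies within the gene. The Trib3 match (152344039 to 152344046) then lies before the start of the gene. Fgf21 and Chac1 carried the same 8 letters, TTGCATCA, as did Vldlr at base -200 of the later of its windows, while Trib3 had TTACATCA and Asns had TGATGAAA. The windows of Atf4, Ddit3, Sesn2, Psat1 and Phgdh held no match, and no window was matched for Eif4ebp1. The motif was thus present in 4 of 9 members with a window, or 44.4%, against 4.51% of 27025 genes with a window and 2.7% of the 9964 genes that had a window and passed the filter. Among related genes with a window it was present in 5 of 13 for transfer RNA synthetases, 4 of 14 other ATF4 or CHOP targets, 2 of 8 amino acid transporters, 2 of 8 bZIP factors, 1 of 6 proline, glutamine and aspartate genes and 1 of 8 genes of eIF2. It was present in 0 of 11 serine and folate genes, 0 of 15 of mTORC1, 0 of 10 of the IRE1 and ATF6 arms, 0 of 6 of mitochondrial stress, 0 of 5 kinase genes, 0 of 5 FGF21 receptor genes and 0 of 2 relatives of Trib3 and Chac1. A match describes letters only and is not evidence of binding.

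Mean levels of the 10 genes were highest at 12 months for most members and lowest at 24 months for most, but not for the same members. In RNA from a sorted pool, fewer cells that express a gene and less RNA per cell cannot be told apart. The mean was highest at 12 months in 8 of 10 members, against 25.5% of all genes tested, and lowest at 24 months in 8 of 10, against 30.1%. Chac1 and Sesn2 were instead highest at 2 months, and Psat1 and Phgdh were lowest at 2 months. Since the genes were chosen with their values in these libraries known, their levels and differences are a description and carry no test. Log2 differences are given with the standard error of the limma fit over all 9 libraries, on the log2(TPM + 1) scale, where genes near 1 TPM show less than their ratio.

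**Figure D1:**
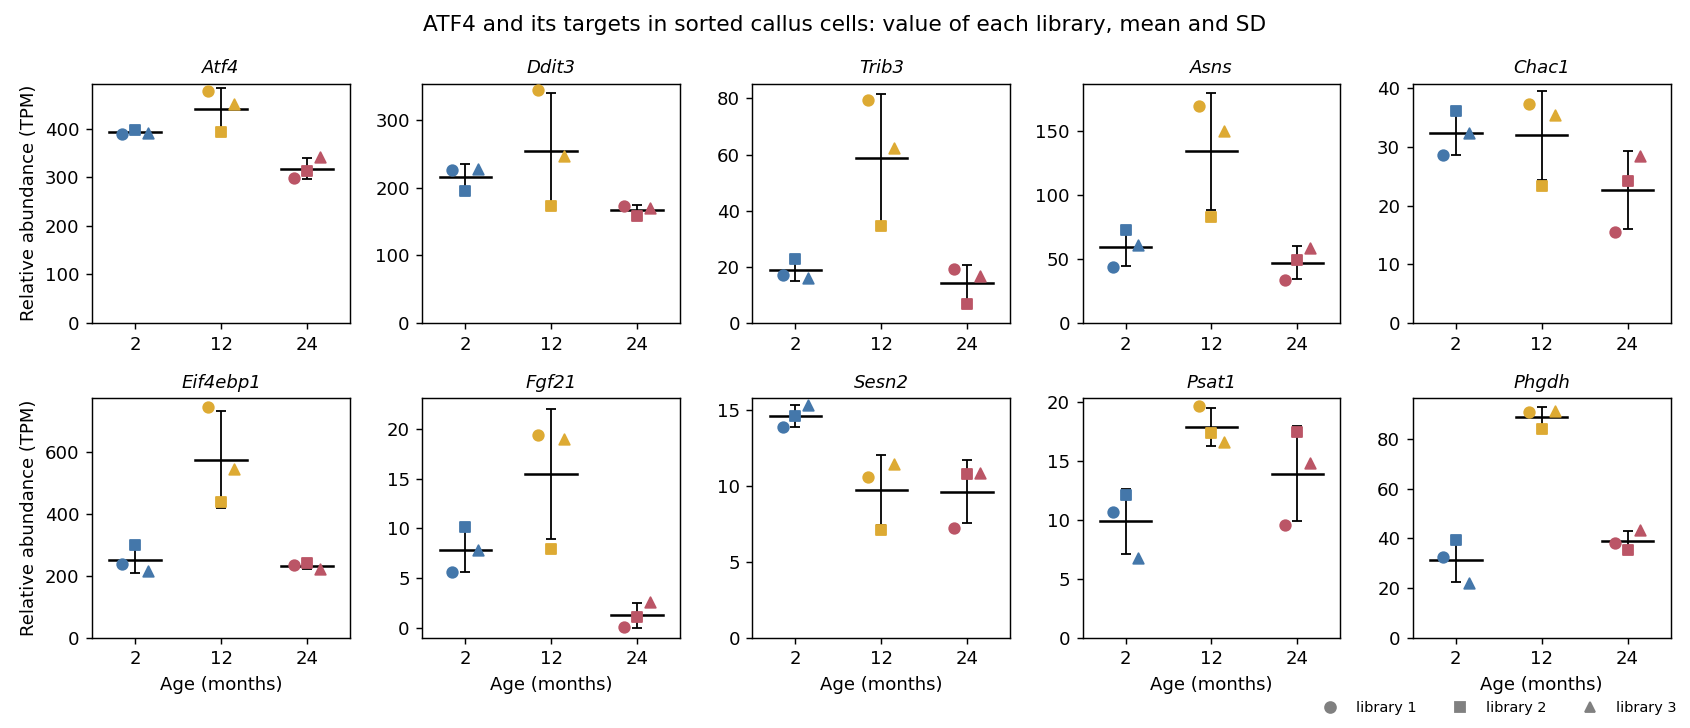
Relative abundance in TPM (vertical axis) of the 10 genes at 2, 12 and 24 months of age (horizontal axis). Each symbol is 1 library, the line is the mean of 3 libraries and the bar is 1 SD. Fgf21 at 24 months lies at 0.0408 to 2.57 TPM, under every library of the other ages.

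Atf4 encodes the factor itself and lies on chromosome 15 at 80255184 to 80257541, plus strand (GRCm38, ENSMUSG00000042406.8). It stood at 389, 398 and 392 TPM in libraries 1, 2 and 3 of 2 months, at 477, 393 and 451 TPM at 12 months and at 299, 313 and 341 TPM at 24 months. All 24-month libraries were below all libraries of the other ages, while library 2 of 12 months fell within the narrow range of 2 months. Means in order of age were 393 ± 4.72, 440 ± 43.0 and 318 ± 21.1 TPM (SD, n = 3 each). The log2 difference was -0.47 ± 0.13 from 12 to 24 months, -0.31 ± 0.13 from 2 to 24 months and 0.16 ± 0.13 from 2 to 12 months. Its highest library was 1.59 times its lowest, the narrowest span of the 10 genes.

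Fgf21, the hormone, lies on chromosome 7 at 45613886 to 45615490, minus strand (ENSMUSG00000030827.5). Its level was 5.57, 10.1 and 7.81 TPM at 2 months, 19.4, 7.89 and 19.0 TPM at 12 months and 0.0408, 1.13 and 2.57 TPM at 24 months. Every library of 24 months was below every library of both other ages, and library 2 of 12 months again lay inside the 2-month range. Means were 7.83 ± 2.27, 15.4 ± 6.54 and 1.25 ± 1.27 TPM (SD, n = 3 each). The log2 difference was -2.95 ± 0.46 from 12 to 24 months, -2.12 ± 0.46 from 2 to 24 months and 0.83 ± 0.46 from 2 to 12 months. With an offset of 0.1 in place of 1 the 12 to 24 month difference was -4.22, with an offset of 5 it was -1.67, and without library 1 of 24 months it was -2.48. Fgf21 was the least abundant member by mean TPM over the 9 libraries, with 47.7% of the genes tested lying under it.

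The FGF21 receptor side was measured in the same libraries. Klb, which encodes the co-receptor beta-Klotho that FGF21 needs on its target cells, was listed at 0 in all 9 libraries, and Kl, its relative Klotho, was at most 0.316 TPM. Of 6 genes listed, Fgfr1, Fgfr2, Fgfr3 and Fgfr4 passed the filter, and none was called in any comparison by limma, with 1, 0 and 0 of the 4 at an unadjusted p under 0.05 from 2 to 24, 2 to 12 and 12 to 24 months. Fgfr3, the receptor abundant in cartilage, was at 262 ± 36.4, 173 ± 56.0 and 158 ± 89.5 TPM in order of age (SD, n = 3 each).

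Ddit3 encodes CHOP, a transcription factor of prolonged stress, and lies on chromosome 10 at 127290774 to 127296288, plus strand. It stood at 226, 196 and 228 TPM at 2 months, 345, 173 and 247 TPM at 12 months and 173, 159 and 170 TPM at 24 months. The 3 libraries of 12 months spanned the range of 2 months, and the lowest of them was barely above the highest of 24 months. Its log2 difference was -0.55 ± 0.21 from 12 to 24 months, -0.37 ± 0.21 from 2 to 24 months and 0.18 ± 0.21 from 2 to 12 months. Without library 1 of 12 months, the last of these was -0.06. The annotation overlaps Ddit3 with Mars and Gm4189 on the opposite strand, and no source used here gives the strand setting, so reads of these genes may not be separable.

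Trib3 encodes a pseudokinase that CHOP and ATF4 induce and that restrains AKT and ATF4 itself. The gene lies on chromosome 2 at 152337422 to 152344032, minus strand. Its level was 17.2, 22.9 and 16.1 TPM at 2 months, 79.4, 34.4 and 62.5 TPM at 12 months and 19.1, 6.57 and 16.7 TPM at 24 months. The 12-month libraries all exceeded those of the other ages, which overlapped each other. Mean levels were 18.7 ± 3.64, 58.8 ± 22.8 and 14.1 ± 6.66 TPM in order of age (SD, n = 3 each), a ratio of 3.14 for 12 over 2 months. The log2 difference was 1.53 ± 0.37 from 2 to 12 months, -2.02 ± 0.37 from 12 to 24 months and -0.49 ± 0.37 from 2 to 24 months. The last of these was -0.75 without library 1 and -0.05 without library 2 of 24 months.

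Within a library, the ratio of Trib3 to Ddit3, its inducer in other cells, does not depend on scaling between libraries. It was 0.198 to 0.254 at 12 months against 0.0707 to 0.117 at 2 months and 0.0413 to 0.110 at 24 months. Library 2 of 12 months, where both genes were lowest for that age, thus still lay above all libraries of the other ages in this ratio. Ddit3 relative to Atf4 overlapped between the ages, at 0.441 to 0.724 over the 9 libraries.

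Chac1 encodes an enzyme that degrades glutathione and is induced through ATF4 and CHOP. It lies on chromosome 2 at 119351229 to 119354381, plus strand. Its level was 28.6, 36.1 and 32.3 TPM at 2 months, 37.3, 23.3 and 35.4 TPM at 12 months and 15.5, 24.2 and 28.5 TPM at 24 months. The 24-month values lay below those of 2 months, with 28.5 against 28.6 TPM at the border, and they overlapped those of 12 months. On the log2 scale, Chac1 differed by -0.53 ± 0.25 from 2 to 24 months, -0.49 ± 0.25 from 12 to 24 months and -0.04 ± 0.25 from 2 to 12 months, and without library 1 of 24 months the first was -0.28. Chac1 and Sesn2 were the members whose mean was highest at 2 months.

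Asns encodes asparagine synthetase, the textbook target of the amino acid response, and lies on chromosome 6 at 7675169 to 7693254, minus strand. It stood at 43.7, 72.6 and 60.7 TPM at 2 months, 170 (169.7), 82.6 and 150 (149.8) TPM at 12 months and 33.3, 49.3 and 58.9 TPM at 24 months. Every 12-month library exceeded every library of the other ages, library 2 of 12 months by the smallest margin. Means were 59.0 ± 14.5, 134 ± 45.7 and 47.2 ± 12.9 TPM (SD, n = 3 each). On the log2 scale, Asns differed by 1.13 ± 0.29 from 2 to 12 months, -1.46 ± 0.29 from 12 to 24 months and -0.33 ± 0.29 from 2 to 24 months. The last was -0.10 without library 1 of 24 months and -0.52 without library 1 of 2 months.

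Phgdh encodes the first enzyme of serine synthesis from glucose, a source of glycine for collagen, and lies on chromosome 3 at 98313170 to 98339990, minus strand. Its level was 32.4, 39.4 and 22.0 TPM at 2 months, 90.8, 84.0 and 91.2 TPM at 12 months and 38.2, 35.1 and 43.3 TPM at 24 months. The 3 libraries of 12 months were close together and far above the other 6, and the other ages overlapped. Means were 31.3 ± 8.76, 88.7 ± 4.05 and 38.9 ± 4.15 TPM (SD, n = 3 each), a ratio of 2.84 for 12 over 2 months. On the log2 scale, Phgdh differed by 1.51 ± 0.20 from 2 to 12 months, -1.17 ± 0.20 from 12 to 24 months and 0.34 ± 0.20 from 2 to 24 months. A processed pseudogene, Phgdh-ps1, lies on chromosome 7, and reads shared with it would be divided by the authors' quantification.

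Psat1 encodes the aminotransferase that follows Phgdh in serine synthesis and lies on chromosome 19 at 15904678 to 15947337, minus strand, with the processed pseudogene Gm3329 on its opposite strand. It stood at 10.7, 12.1 and 6.80 TPM at 2 months, 19.7, 17.3 and 16.6 TPM at 12 months and 9.57, 17.4 and 14.8 TPM at 24 months. Levels at 12 months were above all of those at 2 months, while 24 months overlapped both. Its log2 difference was 0.83 ± 0.27 from 2 to 12 months, -0.37 ± 0.27 from 12 to 24 months and 0.45 ± 0.27 from 2 to 24 months. Psat1 relative to Phgdh was lowest at 12 months, at 0.182 to 0.216, against 0.308 to 0.330 at 2 months and 0.250 to 0.496 at 24 months.

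Eif4ebp1 encodes 4E-BP1, which binds the cap-binding factor eIF4E and restrains translation when mTORC1 is inactive. It lies on chromosome 8 at 27260329 to 27276674, plus strand. The level was 238, 298 and 215 TPM at 2 months, 744, 436 and 542 TPM at 12 months and 233, 239 and 220 TPM at 24 months. The 12-month libraries lay above all others, and the 24-month values sat inside the 2-month range. Means were 251 ± 42.9, 574 ± 157 and 231 ± 9.62 TPM (SD, n = 3 each), and the log2 difference was 1.17 ± 0.19 from 2 to 12 months, -1.28 ± 0.19 from 12 to 24 months and -0.10 ± 0.19 from 2 to 24 months.

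Sesn2 encodes sestrin 2, a leucine sensor that holds back mTORC1 when leucine is scarce, and lies on chromosome 4 at 132492032 to 132510501, minus strand, where Gm12981 is annotated within it on the same strand. It stood at 13.9, 14.6 and 15.3 TPM at 2 months, 10.6, 7.12 and 11.4 TPM at 12 months and 7.21, 10.8 and 10.9 TPM at 24 months. Both older ages were below every 2-month library and overlapped each other. On the log2 scale, Sesn2 differed by -0.56 ± 0.24 from 2 to 12 months, -0.58 ± 0.24 from 2 to 24 months and -0.01 ± 0.24 from 12 to 24 months. Like Chac1, Sesn2 had its highest mean at 2 months, and it was the only member whose 12-month libraries all lay below those of 2 months.

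**Figure D2:**
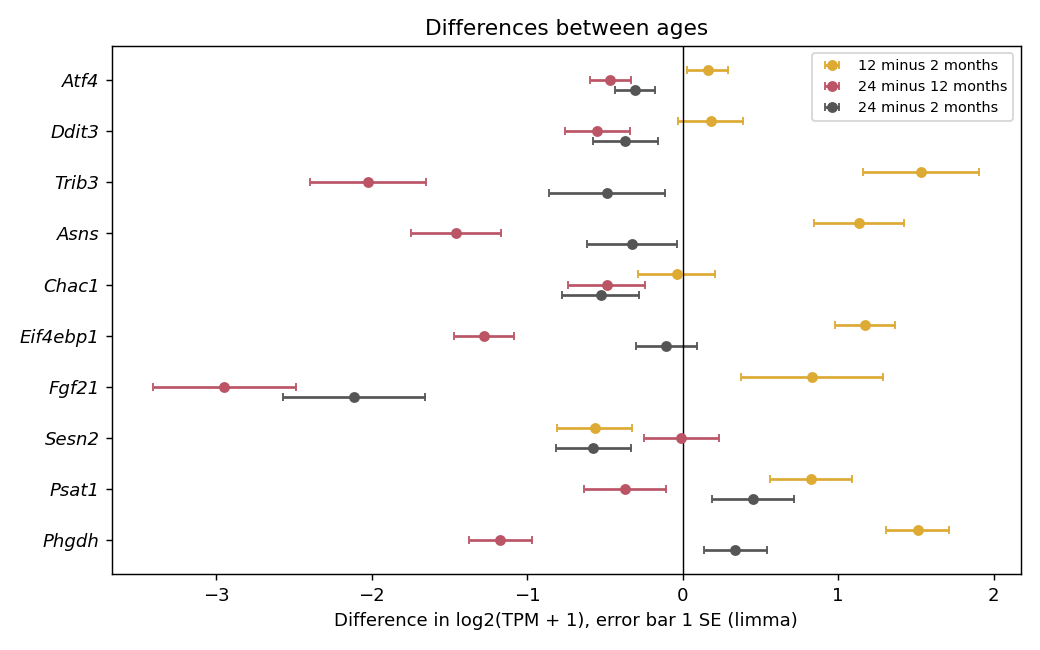
Difference in log2(TPM + 1) between ages (horizontal axis) for each of the 10 genes (vertical axis), with bars of 1 standard error from limma. From 12 to 24 months all 10 points lie below 0, from -2.95 for Fgf21 to -0.01 for Sesn2.

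Side by side, the 3 comparisons share samples and cannot be set against each other as independent. From 2 to 12 months 8 members had a positive and 2 a negative difference, where 42.8% of all genes were positive, and the median was 0.83 against -0.07 over all 14501 genes. From 12 to 24 months all 10 were negative, where 57.4% of all genes were positive, with a median of -0.86 against 0.07. From 2 to 24 months 2 were positive and 8 negative, where 47.9% of all genes were positive, with a median of -0.35 against -0.02. No overlap between the ages was seen for 5 members that were higher and 1 that was lower at 12 than at 2 months, where 9.58% of all genes were higher and 15.4% lower without overlap. From 12 to 24 months 7 members were lower without overlap, against 6.14% of all genes, and from 2 to 24 months 5 were, against 8.97%. Trib3, Asns, Eif4ebp1 and Phgdh at 12 months lay above both other ages, a pattern of 3.06% of all genes, and Atf4, Ddit3 and Fgf21 at 24 months lay below both, a pattern of 1.43%.

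Over all genes, limma called 105 genes (0.724%) from 2 to 12 months, 66 (0.455%) from 12 to 24 months and 23 (0.159%) from 2 to 24 months at an adjusted p under 0.05. Among them were 2 members, Eif4ebp1 and Phgdh, in the first comparison, both higher at 12 months, as were 0.262% of all genes. The second held 4 members, Trib3, Eif4ebp1, Fgf21 and Phgdh, all lower at 24 months, as were 0.303% of all genes. In the last there were 0 members, and 3 had an unadjusted p under 0.05, against 14.5% of all genes. Nothing is read from these member counts, since the choice of genes used the same values. The 12 to 24 month count was 0 when library 1 or 3 at 12 months, or 1 or 2 at 24 months, was left out. It was 5 when library 2 at 12 months, or 3 at 24 months, was left out. Leaving out library 1, 2 or 3 of 2 months gave 2, 3 and 3. That count was also 0 with no filter, with no intensity trend and with only the 2 ages fitted, and it was 2 with an offset of 0.1, where Trib3 and Fgf21 were lost. With at least 5 TPM, quantile scaling or median-of-ratios scaling it was 5. From 2 to 12 months the count was 0 with no filter or no intensity trend. Phgdh alone was called there when library 1 or 3 at 2 months, or 1 or 3 at 12 months, was left out. Trib3 was added there, making 3, with only the 2 ages fitted or without library 2 of 24 months. From 2 to 24 months Fgf21 was called when library 3 of 24 months was left out.

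The libraries of an age differed among themselves in these genes. Relative to each gene's mean over the 9 libraries, the median member deviated by 0.83, 0.30 and 0.54 on the log2 scale in libraries 1, 2 and 3 of 12 months. Library 1 of 12 months was the highest of the 9 for 8 members. Library 2 of 12 months had the lowest value of its age for all members except Psat1, and without it the 2 to 12 month difference was 1.23 for Fgf21, 1.87 for Trib3 and 0.43 for Ddit3. That library also had the highest smooth muscle sum of its age, 410 TPM against 49.3 and 188 TPM, and the highest red cell and lymphoid sum, and their part in its lower member levels was not tested. At 24 months the median deviations were -0.44, -0.39 and -0.20, and library 1, which stood apart from all libraries, had the lowest value of the 9 for 4 members. Without library 1 of 24 months the 12 to 24 month difference stayed below 0 in 9 members and was 0.16 for Sesn2. Some of the smaller differences depended on 1 library. The 12 to 24 month difference was -0.30 for Ddit3 without library 1 of 12 months, and -0.25 for Chac1 and -0.14 for Psat1 without library 1 of 24 months. From 2 to 24 months, without library 3 of 2 months it was 0.23 for Psat1 and 0.11 for Phgdh.

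**Figure D3:**
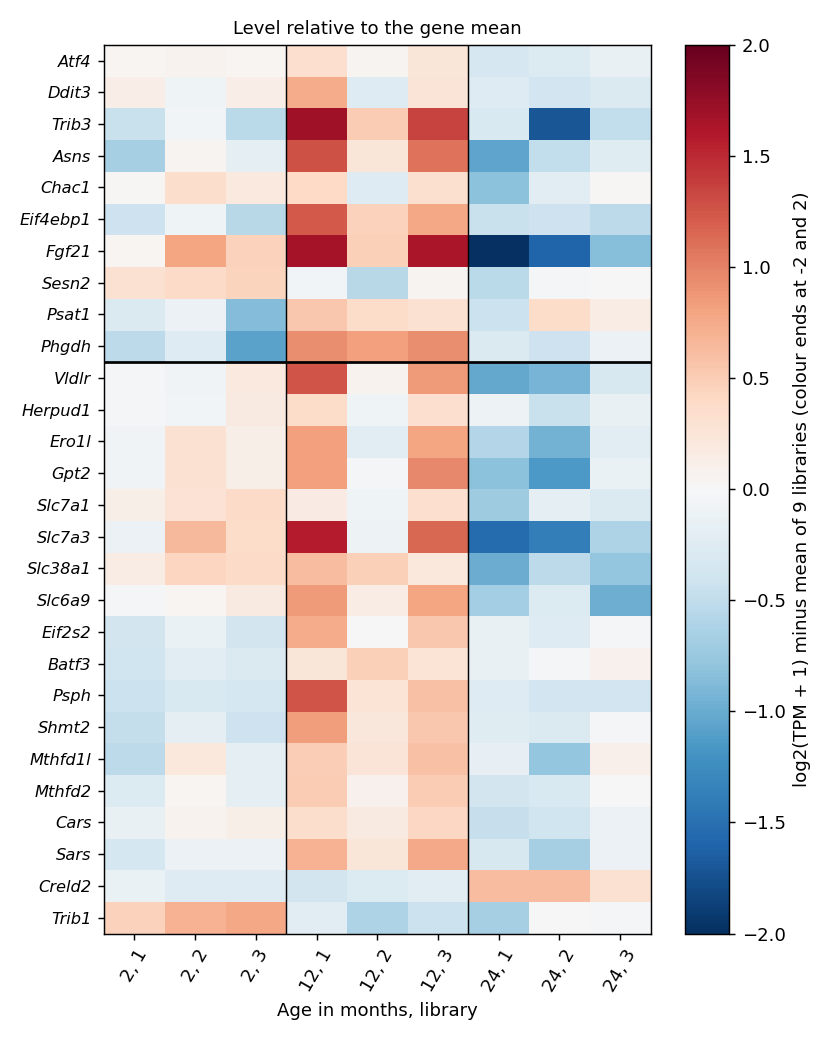
Each cell is the log2(TPM + 1) of a gene in 1 library minus its mean over 9 libraries, with ages and libraries along the horizontal axis. The 10 members are above the line. Beneath it are the related genes whose 24-month libraries lay below, or whose 12-month libraries lay above, those of both other ages, with Creld2 and Trib1. Library 2 of 12 months is paler than libraries 1 and 3 for most members.

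In order of level, Atf4 led at 2 and 24 months, with Eif4ebp1 next and Ddit3 after it, and these 3 genes were the most abundant members in all 9 libraries. At 2 months Eif4ebp1 and Ddit3 overlapped, whereas at 24 months the 3 genes were apart. At 12 months Eif4ebp1 had the highest mean, 574 TPM, although its range overlapped that of Atf4. Asns came next at each age and overlapped Phgdh at 12 and 24 months. At 2 months Chac1 overlapped Phgdh, and Phgdh overlapped Trib3, while Sesn2 was apart from Trib3 above it and from Psat1 below it. Fgf21 overlapped Psat1 at the bottom at 2 months. At 12 months Phgdh and Trib3 both had higher means than Chac1, although Trib3 overlapped it, Fgf21 overlapped both of its neighbours Psat1 and Sesn2, and Sesn2 had the lowest mean. At 24 months Chac1, Trib3, Psat1 and Sesn2 each overlapped the next, and Fgf21 lay apart under all of them.

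Across the 9 libraries the members mostly moved together. Of 45 pairs, 41 had a positive Pearson r on log2(TPM + 1), 13 had r above 0.8, and the median was 0.686. These points share ages and libraries, and the r values are given as a description without a test. No share over all pairs of genes was computed to set beside them. The highest r was 0.981, between Atf4 and Fgf21, and Asns with Eif4ebp1 reached 0.912. The 4 negative pairs all held Sesn2, down to -0.485 with Phgdh. Atf4 spanned only 299 to 477 TPM across these libraries while Fgf21 spanned 0.0408 to 19.4 TPM.

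By the same measure over all genes with a gene-like name, the 5 closest to Fgf21 were Atf4, Espn (espin, an actin-bundling protein) at 0.970, Slc7a3 (a cationic amino acid transporter) at 0.970, Adarb1 (an RNA-editing adenosine deaminase) at 0.960 and Cars (cysteinyl-tRNA synthetase) at 0.957. The 5 closest to Atf4 were Slc7a3 at 0.981, Fgf21, Vldlr (a lipoprotein receptor) at 0.978, Espn at 0.977 and Angptl6 (an angiopoietin-like secreted factor) at 0.970. After the mean of each age was removed, r with Atf4 was 0.960 for Vldlr, 0.954 for Slc7a3, 0.892 for Fgf21, 0.883 for Espn and 0.865 for Angptl6. Slc7a3 stood at 1.77, 3.70 and 2.86 TPM at 2 months, 7.92, 1.80 and 5.61 TPM at 12 months and 0.0346, 0.147 and 0.963 TPM at 24 months. It shared with Fgf21 the drop in library 2 of 12 months and the lowest 24-month value in library 1.

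**Figure D4:**
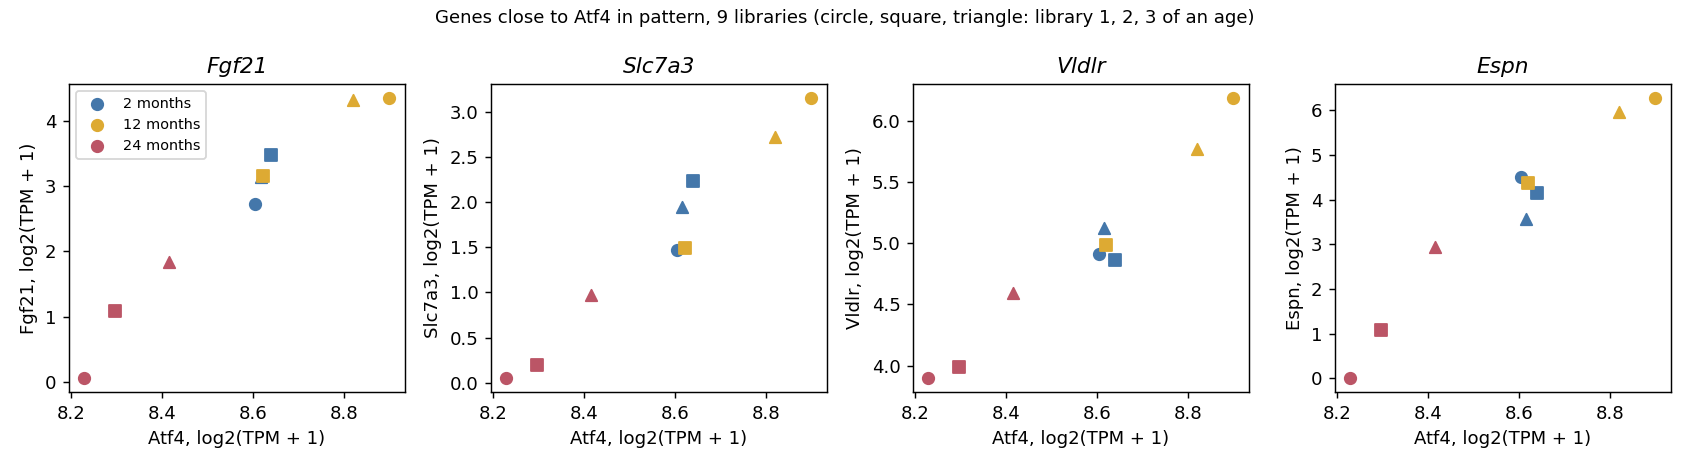
Fgf21, Slc7a3, Vldlr and Espn (vertical axes) against Atf4 (horizontal axis), all in log2(TPM + 1), in 9 libraries coloured by age. The 24-month libraries sit at the lower left, and library 2 of 12 months sits among the 2-month libraries in each panel.

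The wider pathway was followed in 139 related genes, of which 132 passed the filter. These lists, too, were chosen with earlier results of these data known, so their counts are not independent support. By limma, adjusted over all 14501 genes, 2 were called from 2 to 12 months and 1 from 12 to 24 months, and all 3 calls were lost without the filter or without the intensity trend. None was called from 2 to 24 months. From 2 to 24, 2 to 12 and 12 to 24 months 21, 20 and 36 of the 132 had an unadjusted p under 0.05, against 14.5%, 15.6% and 14.1% of all genes. Their median log2 differences were -0.08, -0.04 and -0.01 in that order, against -0.02, -0.07 and 0.07 over all genes.

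Upstream of ATF4, none of 6 kinase genes and their regulators and none of 10 genes for eIF2, its exchange factor and its phosphatase was called in any comparison. From 2 to 24, 2 to 12 and 12 to 24 months the unadjusted p was under 0.05 for 0 kinase genes each time and for 0, 2 and 1 genes of eIF2. Eif2ak3, the PERK kinase of the endoplasmic reticulum, was at 16.2 ± 1.07, 12.4 ± 3.08 and 13.1 ± 1.20 TPM in order of age, and Eif2ak4, the GCN2 kinase that senses uncharged transfer RNA, at 3.69 ± 0.413, 2.47 ± 0.449 and 2.80 ± 0.974 TPM (SD, n = 3 each). Ppp1r15a, the phosphatase subunit GADD34 that ends the response and is itself an ATF4 target, was at 167 ± 2.36, 122 ± 19.5 and 132 ± 19.6 TPM. Eif2s2, the beta subunit of eIF2, had a difference of 0.71 ± 0.19 from 2 to 12 months with an adjusted p of 0.0968 by limma.

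None of 8 partner or related bZIP factors was called, with 0, 2 and 2 at an unadjusted p under 0.05 in the same order of comparisons. Batf3 had a difference of 0.64 ± 0.14 from 2 to 12 months (adjusted p 0.0596, limma). Atf3, which ATF4 and immediate early signals both induce, was at 350 ± 59.7, 217 ± 12.6 and 274 ± 77.5 TPM at 2, 12 and 24 months (SD, n = 3 each), an order unlike that of Atf4. Cebpg, the usual partner of ATF4 on composite elements, was at 45.0 ± 6.74, 56.5 ± 12.1 and 35.8 ± 8.24 TPM.

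Among 16 other ATF4 or CHOP targets, 15 passed the filter and none was called, with 4, 1 and 5 at an unadjusted p under 0.05. Vldlr, Herpud1, Ero1l and Gpt2 lay below both other ages at 24 months, a pattern of 1.43% of all genes. From 12 to 24 months 4 of the 15 had a positive and 11 a negative difference, with a median of -0.36. Vldlr had a difference of -1.49 ± 0.29 with an adjusted p of 0.0506 by limma. Ero1l, an oxidase of the endoplasmic reticulum induced by CHOP, had -1.05 ± 0.27 (adjusted p 0.110), and Gpt2, the mitochondrial alanine aminotransferase, -1.27 ± 0.30 (adjusted p 0.0938).

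Of 12 amino acid transporters, 11 passed and none was called, with 6, 1 and 6 at an unadjusted p under 0.05. From 2 to 24 months 9 of the 11 had a negative difference, with a median of -0.55, and from 12 to 24 months 8 did, with a median of -0.43. Slc7a1, Slc7a3, Slc38a1 and Slc6a9 lay below both other ages at 24 months, a pattern of 1.43% of all genes. From 12 to 24 months the difference was -1.20 ± 0.25 for Slc38a1, a glutamine transporter (adjusted p 0.0643, limma), -1.24 ± 0.26 for Slc6a9, a glycine transporter (adjusted p 0.0645), and -2.05 ± 0.45 for Slc7a3 (adjusted p 0.0687). Slc7a11, the cystine transporter, did not pass, at 0.135 to 0.662 TPM.

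The serine and folate pathway continues from Phgdh and Psat1 through 12 further genes, of which 1 was called, as higher, from 2 to 12 months. Shmt2, the mitochondrial enzyme that converts serine to glycine, stood at 70.3, 85.9 and 73.1 TPM at 2 months, 176, 115 and 142 TPM at 12 months and 82.5, 79.8 and 96.2 TPM at 24 months. It rose by 0.89 ± 0.17 from 2 to 12 months (adjusted p 0.0435, limma). Its 12-month values lay above all 2-month values, a pattern of 9.58% of all genes. The call was lost when any library of 2 months, 1 or 3 at 12 months or library 2 at 24 months was left out, and with an offset of 0.1. Psph, the phosphatase that completes serine synthesis, had a difference of 1.07 ± 0.23 (adjusted p 0.0582), and Mthfd2, the mitochondrial folate enzyme, one of 0.51 ± 0.17 (adjusted p 0.184). Psph, Shmt2, Mthfd1l and Mthfd2 at 12 months lay above both other ages, 4 of 12 against 3.06% of all genes. The other genes of the list did not share this order. From 2 to 12 months 7 of the 12 had a positive and 5 a negative difference, with a median of 0.28. Without overlap 4 were higher and 2 lower, against 9.58% and 15.4% of all genes. Between 12 and 24 months 6 were positive and 6 negative, with a median of -0.13. Without overlap 4 were higher and 4 lower. Of all genes 6.14% were lower in this way, and the share higher is not given here. At an unadjusted p under 0.05 there were 2, 5 and 7 from 2 to 24, 2 to 12 and 12 to 24 months.

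None of 20 cytosolic transfer RNA synthetase genes was called, with 1, 1 and 6 at an unadjusted p under 0.05. Sars, which charges serine, had 0.76 ± 0.19 from 2 to 12 months (adjusted p 0.0843, limma) and -0.94 ± 0.19 from 12 to 24 months (adjusted p 0.0560), and Cars had -0.64 ± 0.16 in the latter (adjusted p 0.102). Sars and Cars were the 2 of 20 whose 12-month values lay above both other ages, a pattern of 3.06% of all genes. Of 9 proline, glutamine and aspartate genes 8 passed and none was called, with 1 at an unadjusted p under 0.05 in each comparison. Pycr1, the last enzyme of proline synthesis and a known ATF4 target, was at 200 ± 10.3, 130 ± 10.5 and 145 ± 28.9 TPM at 2, 12 and 24 months (SD, n = 3 each), the reverse of Phgdh in its order from 2 to 12 months.

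The IRE1 and ATF6 arms of the unfolded protein response held 12 genes, of which 1 was called, as higher, from 12 to 24 months. Creld2, an endoplasmic reticulum protein induced by ATF6, stood at 103, 94.7 and 94.3 TPM at 2 months, 87.8, 93.2 and 96.3 TPM at 12 months and 174, 173 and 140 TPM at 24 months. It rose by 0.80 ± 0.14 from 12 to 24 months (adjusted p 0.0292, limma). The call was lost without any 1 library of 2 months, library 1 or 3 of 12 months, or library 1 or 2 of 24 months. Median-of-ratios scaling and a fit of only the 2 ages also lost it. Between 12 and 24 months 8 of the 12 had a positive and 4 a negative difference, with a median of 0.17. Of all genes 57.4% were positive, with a median of 0.07. Sdf2l1, another chaperone of this arm, was at 31.2 ± 3.81, 39.4 ± 2.60 and 59.1 ± 11.1 TPM, and Atf6b at 19.6 ± 0.609, 12.1 ± 2.70 and 23.5 ± 2.97 TPM (SD, n = 3 each).

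None of 9 mitochondrial stress genes was called, with 1, 2 and 2 at an unadjusted p under 0.05. Oma1, the protease that relays mitochondrial stress to eIF2 through DELE1, was at 11.0 ± 1.31, 5.91 ± 1.67 and 13.2 ± 3.72 TPM at 2, 12 and 24 months (SD, n = 3 each), lowest at the age at which most members were highest. Of 16 genes of mTORC1 and its sensors 14 passed and none was called, with 1, 3 and 2 at an unadjusted p under 0.05. Mtor, the kinase of the complex, was at 11.3 to 14.4 TPM at 2 months, 19.2 to 21.9 TPM at 12 months and 10.0 to 22.5 TPM at 24 months, a difference of 0.65 ± 0.26 from 2 to 12 months (adjusted p 0.259, limma). Sesn1 was at 19.3 ± 2.95, 11.2 ± 1.72 and 16.5 ± 1.13 TPM in order of age, and Eif4ebp2, the relative of Eif4ebp1, at 12.5 ± 1.84, 7.23 ± 0.938 and 4.84 ± 3.87 TPM.

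Of the relatives of Trib3 and Chac1, 1 of 3 was called, as lower, from 2 to 12 months. Trib1 stood at 55.0, 65.4 and 68.7 TPM at 2 months, 34.5, 25.6 and 29.4 TPM at 12 months and 24.8, 40.2 and 39.0 TPM at 24 months. It fell by 1.06 ± 0.21 from 2 to 12 months (adjusted p 0.0435, limma). All of its 12-month values lay below all 2-month values, a pattern of 15.4% of all genes. Those of Trib3 lay above, a pattern of 9.58%. The call of Trib1 was lost without any single library of 2 or 12 months, without library 2 of 24 months and with an offset of 0.1. Trib2 and Chac2 were at 3.28 to 11.0 TPM and 2.01 to 5.79 TPM over the 9 libraries, and neither was called.

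**Figure D5:**
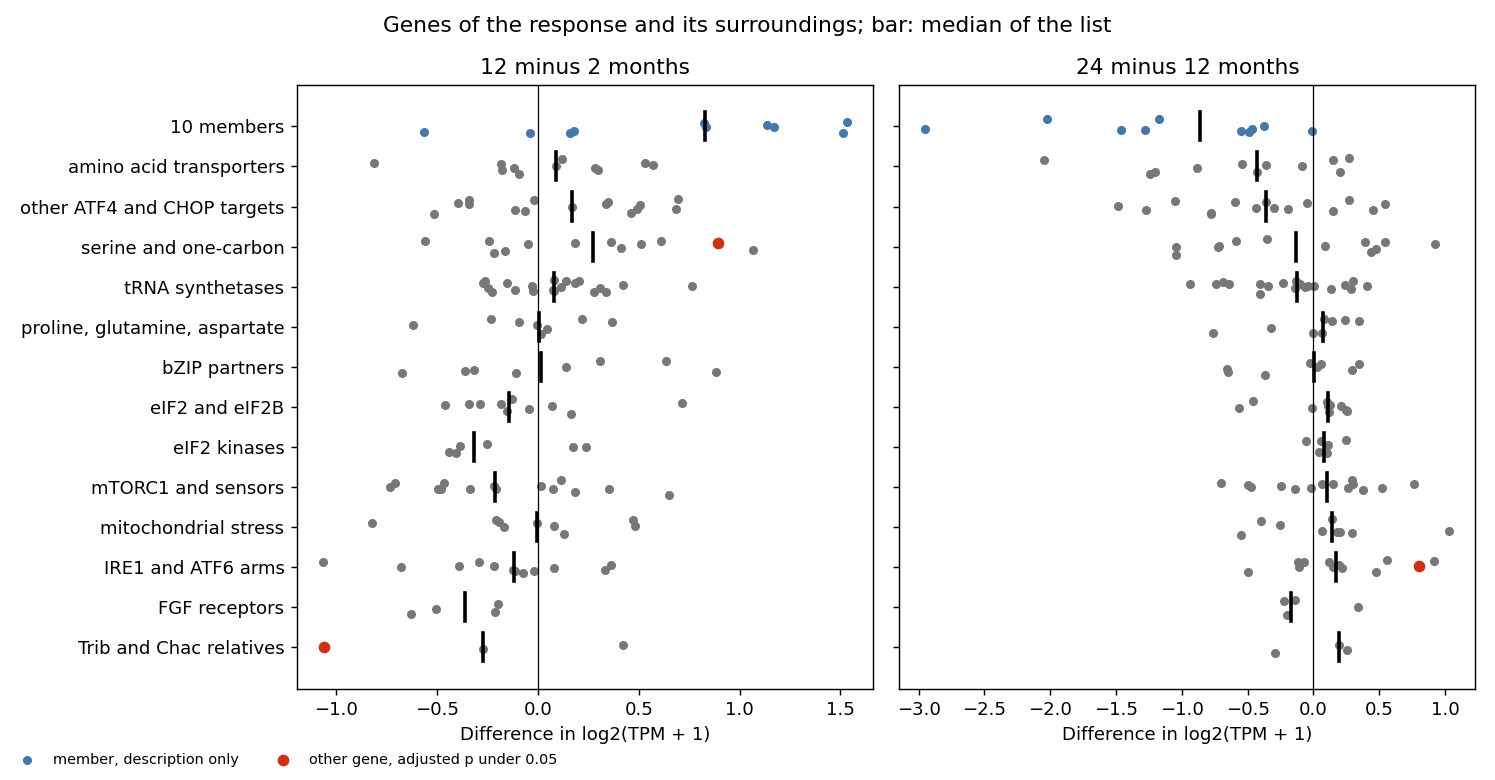
Difference in log2(TPM + 1) (horizontal axes) of each gene, by list (vertical axis), from 2 to 12 months and from 12 to 24 months. Blue points are the 10 members, red points are other genes at an adjusted p under 0.05, and the vertical bar is the median of a list. The median of the members is 0.83 on the left and -0.86 on the right.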

How the data were processed

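RNA of sorted skeletal stem cells was sequenced, and the authors deposited 1 table of log2(TPM + 1) values with 53607 rows and 9 columns, 3 per age. Salmon and build GRCm38.p6 are named per the submitters' processing notes, and no source used here gives versions or strand settings. Since TPM holds no read totals, the depth behind a value is unknown. Column names show only the age, so libraries are numbered 1 to 3 within an age in column order, which pairs nothing.

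Rows with at least 1 TPM in at least 3 libraries (14501) were fitted together with limma 3.58.1 in R 4.3.3, 1 mean per age, an intensity trend and no covariate, and p-values were adjusted by Benjamini-Hochberg over all of them. The procedure was run on simulated data with shifts larger than most differences reported here, and the recovery of smaller differences was not simulated. All members are named. From each related list the called genes and the 3 with the smallest F test p are eligible, and other genes named were chosen after their values were seen. Likeness is the 5 highest Pearson r, leaving out predicted, ribosomal, mitochondrial and pseudogene names. The members and lists were chosen with earlier results of these data known.

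Coordinates come from GENCODE M21 on GRCm38 and promoters from RefSeq on GRCm38.p6. The symbol Ddit3 matches more than 1 annotated gene, and the longer is given. Alternatives were other offsets, filters, scalings and thresholds, no trend, only the ages compared, and each library left out.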

Additional observations from a re-analysis of the deposited data

How the results depend on the processing

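No paired analysis was possible because the columns carry no replicate numbers. Genes called numbered 23 from 2 to 24 months, 105 from 2 to 12 months and 66 from 12 to 24 months, and related genes called numbered 0, 2 and 1 in that order. With an offset of 0.1 the counts were 5, 57 and 43 genes and, from 2 to 12 months, 0 related genes. An offset of 5 gave 2 related genes from 12 to 24 months. With no filter there were 0, 8 and 0 genes and 0 related genes in each comparison, and with no intensity trend 3, 15 and 4 genes and 0 related genes. At least 5 TPM gave 4 and 3 related genes from 2 to 12 and from 12 to 24 months, quantile scaling 4 and 5, and median-of-ratios scaling 5 and 5. Median-of-ratios scaling called 100 genes from 12 to 24 months, 18 higher and 82 lower against 22 and 44, and 58 higher and 57 lower from 2 to 12 months against 38 and 67, while quantile scaling gave 56 and 67 there. Fitting only the ages compared gave 270 genes and 4 related genes from 2 to 12 months, and 2 and 0 from 12 to 24 months. An adjusted p under 0.1 gave 39, 405 and 239 genes and 1, 8 and 10 related genes. Leaving out 1 library gave 1 to 430 genes from 2 to 24 months, the most without library 3 of 24 months, 17 to 220 from 2 to 12 months and 2 to 345 from 12 to 24 months, with 0 to 7, 0 to 5 and 0 to 9 related genes. The cause was not tested. Of 510 member values under alternatives, the sign differed from the reported one in 1 for Eif4ebp1 (2 to 24 months), 1 for Ddit3 and 4 for Chac1 (2 to 12 months) and 3 for Sesn2 (12 to 24 months). Unknown depth limits what can be said of values near 0, such as Fgf21 at 24 months.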
